A study of Mus musculus with 20 samples.

Results

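The respiratory chain genes described here are the protein-coding mouse genes whose symbol begins with Nduf, Uqcr, Cox4 to Cox8, Atp5 or mt-, together with Cyc1, Cycs and Sdha to Sdhd. The rule took 107 genes under 106 symbols out of 37310 genes of the annotation, 94 of them nuclear and 13 mitochondrially encoded. At least 1 read was counted for 106 of them, and 103 (90 nuclear, 13 mitochondrial) passed the filter on low counts and were tested. The 4 that did not pass were Cox6a2, Cox7b2, Cox8b and Cox8c. The symbol rule also takes genes that encode no subunit. Among them are the complex I assembly factors Ndufaf1 to Ndufaf4, the ATP synthase relative Atp5s, and Atp5l-ps1, whose symbol marks it as a pseudogene. Cox4nb and Atp5sl are no subunits either and were assigned to no complex here. Ndufb8 stands in the annotation under 2 overlapping gene IDs.

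Polyadenylated RNA was sequenced from the right liver lobe of male CD-1 IGS fetuses at embryonic day 18.5, 10 fetuses from dams under maternal nutrient restriction (MNR) and 10 from control dams. Each group held 5 litters, lettered A to E, with 2 littermates per litter, and equal letters in the 2 groups are different dams. All fetuses were of the same outbred strain with no stated genetic alteration, and the sources used here do not give the degree and timing of the restriction. The deposited counts totalled 16703824 to 28016953 per MNR fetus and 14925778 to 27848100 per control fetus. Since a litter shares its dam, counts of littermates were summed and the litter was the replicate.

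The respiratory chain lies in the inner mitochondrial membrane. Complex I (NADH dehydrogenase) and complex II (succinate dehydrogenase) pass electrons to ubiquinone, complex III passes them to cytochrome c, and complex IV (cytochrome c oxidase) passes them to oxygen. Complexes I, III and IV pump protons, and complex V (ATP synthase) uses the gradient to make ATP. Complex II is encoded entirely in the nucleus. The other complexes mix nuclear subunits with subunits encoded by mitochondrial DNA, whose genes are transcribed as long precursors and cut apart. Hepatocytes are rich in mitochondria and draw on the chain for glucose production, urea synthesis and fat oxidation, while maturing red cells, abundant in the fetal liver, lose theirs.

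Pieces of sequence that bear on how reads can be given to genes are shown first, from the mm9 build, plus strand. The reading frames of mt-Atp8 and mt-Atp6, both subunits of ATP synthase, share 43 bases at chrM:7927-7969, where capitals mark the start codon of mt-Atp6 and the stop codon of mt-Atp8. The annotated frames of mt-Nd4, mt-Co3 and mt-Cytb end in a lone T (capital), a form known to be completed to a stop codon by the poly(A) tail, and mt-Nd1 ends in a whole stop codon (capitals). The last 30 bases of each are shown for chrM:11515-11544, chrM:9361-9390, chrM:15259-15288 and chrM:3678-3707.
mt-Atp8/mt-Atp6 overlap: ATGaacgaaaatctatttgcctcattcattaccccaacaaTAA
mt-Nd4 end: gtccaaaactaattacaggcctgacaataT
mt-Co3 end: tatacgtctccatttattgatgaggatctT
mt-Cytb end: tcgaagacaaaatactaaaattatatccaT
mt-Nd1 end: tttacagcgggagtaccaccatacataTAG
A read that lies inside the 43 shared bases matches both mt-Atp8 and mt-Atp6. The frames of mt-Nd4l and mt-Nd4 also overlap on the same strand, and mt-Nd5 and mt-Nd6 overlap on opposite strands.

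The nuclear genes whose difference between the groups had the smallest p were Cycs, which encodes somatic cytochrome c, and Cox5a, a subunit of complex IV. The 250 bases before their transcription starts, from RefSeq on GRCm38.p6, are at chr6:50566570-50566819 (minus strand, Cycs) and chr9:57520982-57521231 (plus strand, Cox5a). Capitals mark the match to the NRF1 motif, which begins 61 bases before the start of Cycs.
Cycs: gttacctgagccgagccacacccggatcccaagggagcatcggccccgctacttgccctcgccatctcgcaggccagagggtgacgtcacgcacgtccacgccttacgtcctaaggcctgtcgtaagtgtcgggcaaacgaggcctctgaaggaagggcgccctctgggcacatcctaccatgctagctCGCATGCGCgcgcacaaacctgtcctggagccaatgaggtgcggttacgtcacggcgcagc
Cox5a: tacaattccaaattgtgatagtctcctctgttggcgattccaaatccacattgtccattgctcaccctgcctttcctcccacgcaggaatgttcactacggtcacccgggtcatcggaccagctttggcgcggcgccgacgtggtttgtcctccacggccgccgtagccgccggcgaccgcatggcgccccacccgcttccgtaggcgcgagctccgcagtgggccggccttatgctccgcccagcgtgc
The windows searched ran from 250 bases before to 50 after the start, on both strands, and 75 of 93 nuclear member symbols had one. NRF1 is a nuclear factor known to act on many respiratory chain promoters, and its core GCGCATGCG was found in 10 of 75 members (13.3%) and in 421 of 17492 promoters of all genes (2.41%). The core AAGATGGC, read by YY1, was found in 10 of 75 members (13.3%), against 3.22% of all promoters. The ETS core CCGGAAGT, to which GABP binds, was found in 5 members (6.67%), against 5.29% of all promoters, and the oestrogen-related receptor core TCAAGGTCA in 2 members, Atp5g3 and Sdhd (2.67%), against 0.332%. The windows of Cox5a and of the assembly factor Ndufaf1 held none of these letters. Such matches describe sequence and are not measured sites.

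Most mitochondrially encoded genes stood above the nuclear members per length. As exceptions, Atp5b lay above mt-Nd4l and overlapped mt-Nd3, mt-Nd5 and mt-Atp8 over the litters, and mt-Nd6 lay among the nuclear members. In TPM, the usual unit that divides counts by transcript length and scales each library to the same total, the median of the 13 genes over all litters was 4525 TPM, against 127 TPM for the 90 tested nuclear members, a ratio of 35.7. The ratio was 53.0 when each gene's counts were divided by the length of its longest transcript, so the distance between both groups of genes depends on the lengths used. With those lengths Atp5b stood at 1259 TPM over all litters, below mt-Atp8 at 2399 TPM and mt-Nd4l at 1282 TPM. Together the 13 genes held 6.30% ± 0.31 of all TPM in MNR litters and 6.57% ± 0.35 in control litters (SD, n = 5 each), and the nuclear members held 1.56% ± 0.07 in MNR litters and 1.57% ± 0.07 in control litters.

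The catalytic core subunits of complex IV stood highest. Over the litters, mt-Co2 ranged from 10232 to 11021 TPM in MNR and from 9807 to 11683 TPM in control. For mt-Co3 the ranges were 9908 to 10783 TPM in MNR and 9465 to 11360 TPM in control, and for mt-Co1 9001 to 9886 TPM in MNR and 8842 to 10459 TPM in control. These 3 genes overlapped each other in level, and all lay above mt-Atp6, which ranged from 6718 to 7672 TPM in MNR and from 6572 to 7865 TPM in control. Next came mt-Cytb, the cytochrome b of complex III, at 6031 ± 531 TPM in MNR and 6443 ± 430 TPM in control litters (SD, n = 5 each). The complex I subunits followed, with mt-Nd1 at 4778 ± 618 TPM in MNR and 5250 ± 221 TPM in control, then mt-Nd4, mt-Nd2, mt-Nd3 and mt-Nd5. mt-Nd3, mt-Nd5 and mt-Atp8 overlapped in level, between 1560 and 2480 TPM over all 10 litters. mt-Nd4l stood at 998 ± 108 TPM in MNR and 1090 ± 90 TPM in control, and mt-Nd6 was lowest by a wide margin.

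The only protein-coding gene on the light strand is mt-Nd6, a complex I subunit, and its mRNA in human cells carries little or no poly(A) tail. It measured 90.3, 74.7, 84.2, 87.0 and 99.9 TPM in MNR litters A to E, against 126, 158, 140, 69.3 and 74.2 TPM in control litters A to E. Control litters A, B and C lay above every MNR litter, and control litters D and E lay just below the lowest MNR litter. In CPM, which the test used, MNR litters ranged from 26.2 to 34.6 CPM, against 23.8 CPM in control litter D and 26.7 CPM in control litter E, so control litter E lay within the MNR range. In mt-Nd5, which overlaps mt-Nd6 on the opposite strand, the same control litters D and E were the lowest of all 10, at 1863 and 2247 CPM (counts scaled to library size but not to gene length), against 2293 to 2499 CPM in MNR litters and 2468 to 3059 CPM in control litters A to C. The sources used here do not say whether reads were counted by strand.

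**Figure D1:**
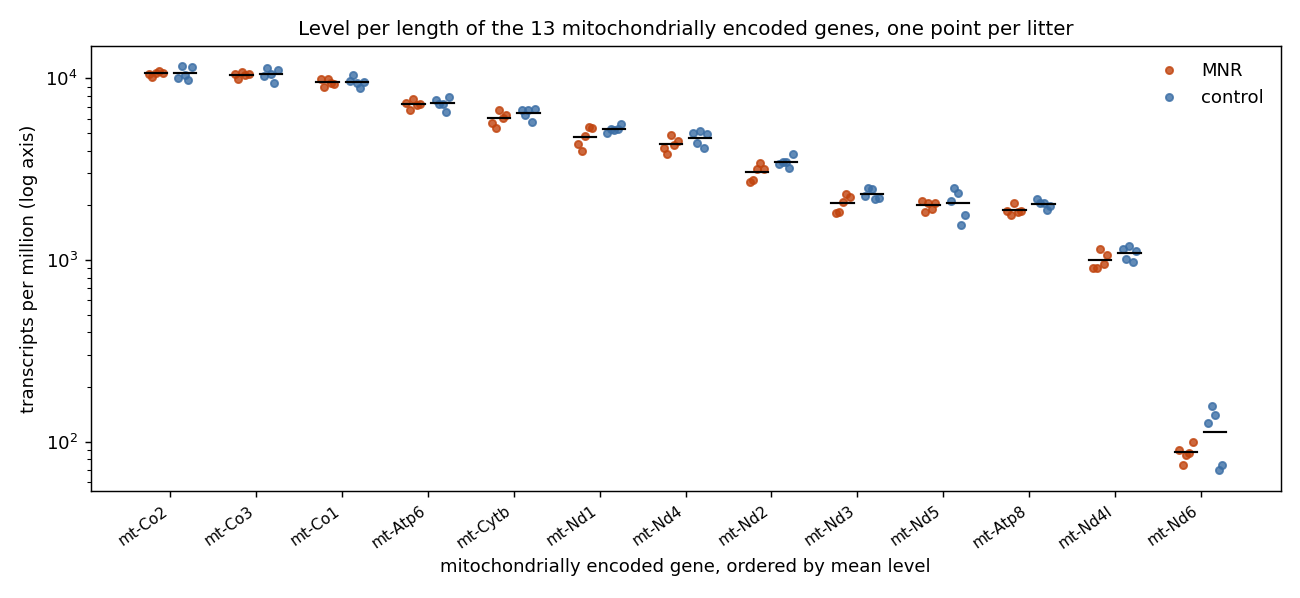
Level per length of the 13 mitochondrially encoded genes in TPM on a log axis, with a point for each litter and a bar at the mean of 5 litters, MNR at left and control at right of each gene. mt-Co2, mt-Co3 and mt-Co1 stand highest, between 8842 and 11683 TPM, mt-Nd6 between 69.3 and 158 TPM, and MNR and control litters overlap in every gene.

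Several of these genes have an identical nuclear copy that limits their level. In mm9 a block at chr1:24618374-24622404 repeats mitochondrial sequence. It is identical over 100% of mt-Co2, mt-Co3, mt-Atp8, mt-Atp6 and mt-Nd4l, 99.1% of mt-Nd3 and 63.6% of mt-Nd4. For mt-Co1, mt-Cytb, mt-Nd1, mt-Nd2, mt-Nd5 and mt-Nd6, no nuclear alignment of 50 or more bases was identical throughout. The predicted genes Gm10222 and Gm10925 are annotated on the chromosome 1 block. Gm10222 had 84518 counts in all fetuses together, against 85508 for mt-Nd4l, and Gm10925 had 1113781, against 1359068 for mt-Atp6. Gm10925 (chr1:24620814-24621627) also spans part of the copy of mt-Atp8 (chr1:24621448-24621651), so its counts need not be of mt-Atp6 sequence alone. The ratio of Gm10222 to mt-Nd4l was 0.948 to 1.04 in every fetus, and that of Gm10925 to mt-Atp6 was 0.803 to 0.834. The log2 fold change of MNR over control was -0.13 for both Gm10222 and mt-Nd4l, and -0.02 and -0.01 for Gm10925 and mt-Atp6. Reads of identical sequence cannot be told apart, so the levels of mt-Co2, mt-Co3, mt-Atp6, mt-Atp8, mt-Nd3, mt-Nd4 and mt-Nd4l, and their place in the order above, are uncertain. mt-Co1 has a copy of its whole length on chromosome 2 at 97.6% identity, and mt-Nd5 one over 52.4% of its length on chromosome 13 at 95.2%. Identical stretches inside these copies were not sought, so whether reads of mt-Co1 and mt-Nd5 can be told apart from them was not examined.

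The central question was whether maternal nutrient restriction changed the level of these transcripts. Of the 103 tested members, 0 passed edgeR's quasi-likelihood test at an adjusted p under 0.05, against 117 of 17573 tested genes (0.666%). At an unadjusted p under 0.05, 5 members were lower in MNR, Cycs, Cox5a, Ndufaf1, Ndufs5 and Atp5j, against 9.69% of all genes, and 0 members were higher, against 9.95% of all genes. DESeq2 called 3 members lower in MNR (Cycs, Cox5a and Ndufaf1), against 2.89% of all genes, and 0 higher, against 3.73%. Every MNR litter lay below every control litter in 2 members, Cycs and Cox5a, against 2.23% of all genes, and above in 0 members, against 2.28%. These member shares were near or below those of all genes, so they are no result about the members. In whole liver tissue, a smaller share of a cell type and less RNA per cell cannot be told apart.

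The estimates were narrow. For 74 of the 103 members the 95% confidence interval of the difference lay within a 1.2-fold change in either direction, and for 99 within a 1.5-fold change, against 5325 and 13262 of the 17573 tested genes. The exceptions at 1.5-fold were mt-Nd6, Cox4i2, Cox7a1 and Ndufa4l2. The median SD of log2 CPM between litters of a group was 0.11 for members and 0.16 for all genes. The median log2 fold change was -0.11 for the 13 mitochondrially encoded members, -0.02 for the 90 nuclear members and 0.00 for all genes. Of the nuclear members, 55 had a negative and 35 a positive log2 fold change.

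**Figure D2:**
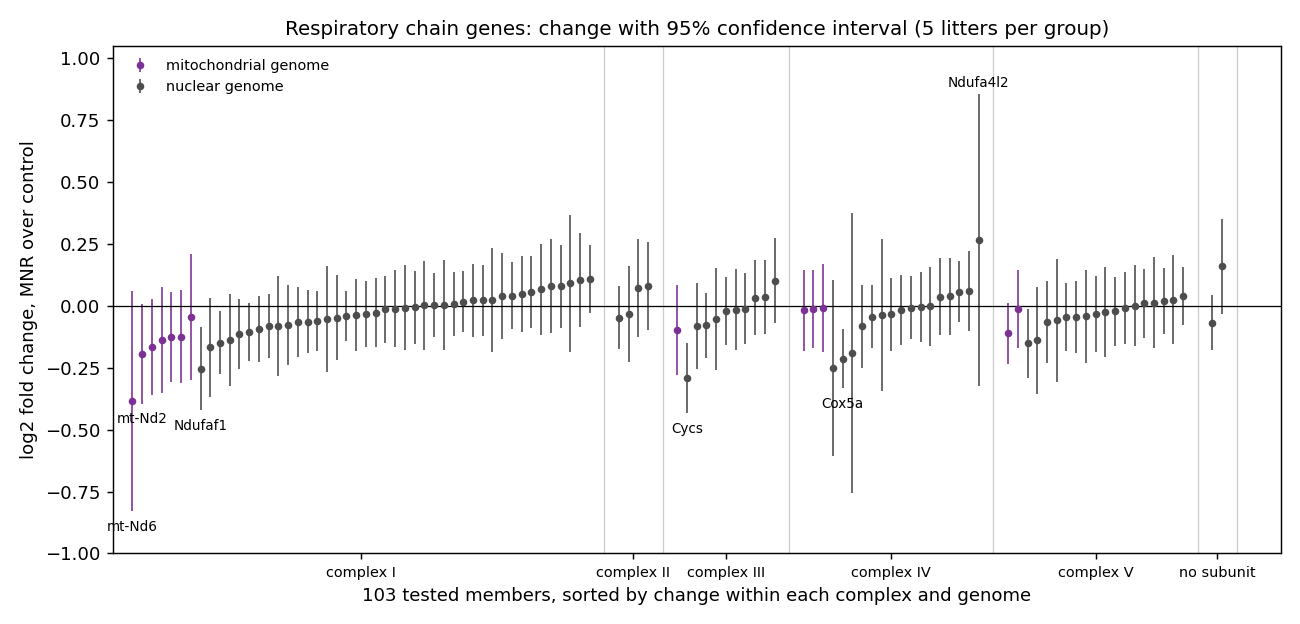
Log2 fold change of MNR over control with its 95% confidence interval for the 103 tested members, sorted within each complex, mitochondrially encoded genes in purple and nuclear genes in grey (5 litters per group). Most intervals include 0, all 13 purple points lie below 0 without passing the test, and Cycs, Cox5a and Ndufaf1 are the nuclear genes of smallest p.

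All 13 mitochondrially encoded genes had a negative log2 fold change, and the interval of each included 0. All but mt-Nd6 come from heavy-strand precursors, and all 13 were read from the same libraries, so their common sign is not 13 separate results. The complex I genes mt-Nd1, mt-Nd2, mt-Nd3, mt-Nd4, mt-Nd4l, mt-Nd5 and mt-Nd6 had log2 fold changes of -0.14, -0.19, -0.17, -0.12, -0.13, -0.04 and -0.38, while mt-Co1, mt-Co2 and mt-Co3 stood at -0.01, -0.01 and -0.02. No test was made of a difference between complexes. mt-Nd2, whose product sits in the proton-pumping arm of complex I, had 1783, 1970, 2159, 2411 and 2204 CPM in MNR litters A to E, against 2279, 2428, 2365, 2211 and 2747 CPM in control litters A to E. MNR litters A, B, C and E lay below all control litters, and MNR litter D was among the controls (log2 fold change -0.19, SE 0.09, by edgeR, adjusted p = 0.275). mt-Nd3 had 478 ± 59 CPM in MNR and 536 ± 36 CPM in control litters (SD, n = 5 each, by edgeR, adjusted p = 0.325). mt-Nd6 had the lowest log2 fold change of the members, -0.38, with an SE of 0.20 and an adjusted p by edgeR of 0.323.

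In MNR litters A and B the complex I genes were low beside the complex IV genes. The summed CPM of the 7 mt-Nd genes over that of mt-Co1, mt-Co2 and mt-Co3 was 0.567, 0.567, 0.628, 0.631 and 0.651 in MNR litters A to E, against 0.668, 0.621, 0.705, 0.653 and 0.652 in control litters A to E. The groups overlapped in MNR litters C, D and E and control litter B, and no test was made of this ratio, which was chosen after the values were seen. The summed mt-Nd genes stood at 12245 ± 986 CPM in MNR and 13363 ± 916 CPM in control (SD, n = 5 each), and the summed mt-Co genes at 20093 ± 428 CPM in MNR and 20282 ± 1666 CPM in control. The remaining mitochondrially encoded genes were mt-Cytb at a log2 fold change of -0.10 (by edgeR, adjusted p = 0.553), mt-Nd5 at -0.04 (0.873), mt-Atp8 at -0.11 (0.306) and mt-Atp6 at -0.01 (0.943).

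As a share of all gene counts, the 13 genes took 3.98%, 3.75%, 4.23%, 4.11% and 4.09% in MNR litters A to E, against 4.22%, 4.39%, 4.23%, 3.88% and 4.37% in control litters A to E. The means were 4.03% ± 0.18 in MNR and 4.22% ± 0.20 in control (SD, n = 5 each). Counts given to Gm10222 (84518 in all fetuses together) and Gm10925 (1113781) are in neither this share nor the share of TPM above. The difference of the means, -0.19 percentage points, was about the size of the SD within a group, and litters overlapped. It was -0.12 without MNR litter B, -0.11 with only fetus 1 of each litter and -0.27 with only fetus 2, and ran from -0.27 to -0.12 when a litter was left out. Littermates differed by 0.00247 to 0.617 percentage points, with a median of 0.246, so fetuses within a litter spread as widely as the group means lay apart. The nuclear members took 0.871% ± 0.045 of gene counts in MNR and 0.882% ± 0.037 in control (SD, n = 5 each).

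**Figure D3:**
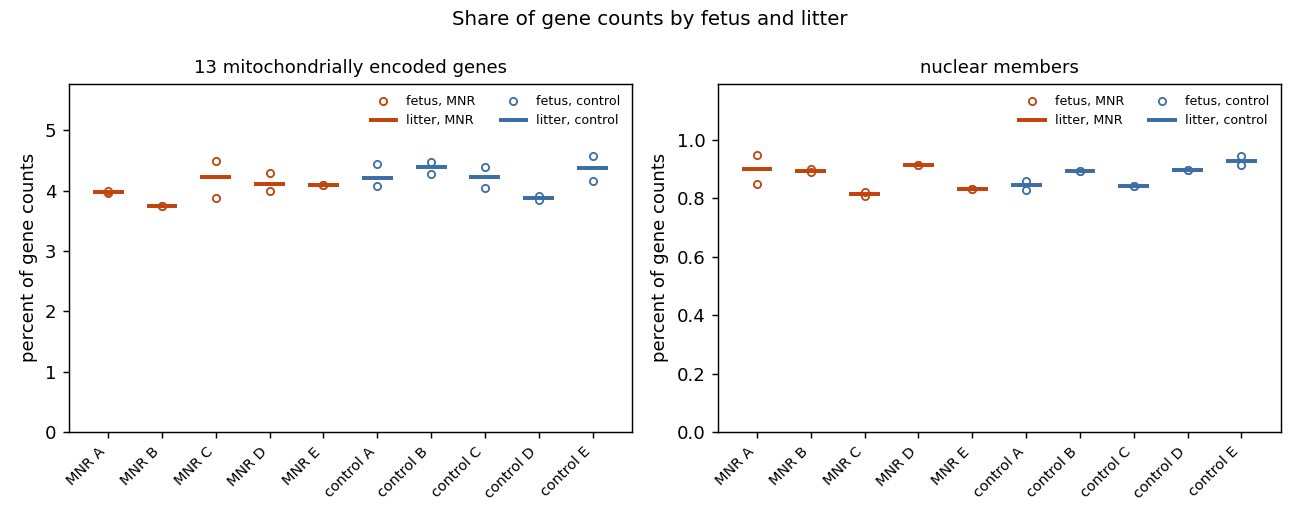
Percent of gene counts held by the 13 mitochondrially encoded genes (left) and by the nuclear members (right), with an open point for each fetus and a bar for each litter, MNR litters before control litters. Mitochondrial shares lie between 3.75% and 4.23% in MNR litters and between 3.88% and 4.39% in control litters.

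The nuclear members of complex I formed the largest set, with 41 genes tested. Their median log2 fold change was -0.01, with 23 negative and 18 positive, and they ranged from -0.25 to 0.11. Per length they lay between 8.73 and 213 TPM over all litters. The highest was Ndufb9, an accessory subunit, at 217 ± 7 TPM in MNR and 209 ± 15 TPM in control litters (SD, n = 5 each). The lowest was the assembly factor Ndufaf3, at 8.14 ± 0.37 TPM in MNR and 9.32 ± 1.21 TPM in control. With longest transcripts as lengths, Ndufaf4 was lowest at 8.95 TPM over all litters, and Ndufaf3 stood at 10.7 TPM. The 7 nuclear core subunits, which carry the flavin and iron-sulphur clusters, had log2 fold changes of -0.11 to 0.08. The lowest of these was Ndufs8, a core subunit with 2 iron-sulphur clusters, at 28.8 ± 1.1 CPM in MNR and 30.9 ± 1.8 CPM in control (log2 fold change -0.11, by edgeR, adjusted p = 0.295). Ndufs5, an accessory subunit, had 21.6, 21.4, 22.1, 23.4 and 21.0 CPM in MNR litters A to E, against 23.2, 23.2, 23.8, 24.1 and 27.2 CPM in control litters A to E. Its MNR litters were lower except that litter D lay among the controls (log2 fold change -0.15, SE 0.06, by edgeR, adjusted p = 0.192), and Ndufs5 has a near-identical copy elsewhere in the genome.

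The assembly factors of complex I stood low per length. Ndufaf1 (mm9 chr2:119481182-119488563, minus strand) takes part in building the membrane arm of complex I. It had 12.7, 12.1, 12.7, 13.8 and 12.98 CPM in MNR litters A to E, against 14.5, 13.5, 17.6, 14.6 and 16.5 CPM in control litters A to E. Only MNR litter D reached the range of the controls, above control litter B (log2 fold change -0.25, SE 0.08, by edgeR, adjusted p = 0.112, DESeq2 adjusted p = 0.0480). Ndufaf2 and Ndufaf3 had log2 fold changes of -0.14 and -0.17 (by edgeR, adjusted p = 0.403 and 0.340), and Ndufaf4 had 0.00.

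Complex II, which oxidises succinate and is shared with the citrate cycle, had the smallest range of levels among the nuclear sets. Complex II was also the smallest nuclear set of the complexes and held only subunits. Its 4 subunits lay between 123 and 282 TPM over all litters, a 2.30-fold range. The flavoprotein Sdha was highest at 277 ± 4 TPM in MNR and 287 ± 9 TPM in control litters (SD, n = 5 each). The iron-sulphur subunit Sdhb was lowest at 126 ± 12 TPM in MNR and 119 ± 10 TPM in control. With longest transcripts as lengths, Sdhd was highest at 284 TPM and Sdhc lowest at 70.9 TPM over all litters. Sdha then stood at 158 TPM and Sdhb at 140 TPM, so the order and the range depend on the lengths used. The log2 fold changes were -0.05 for Sdha, 0.07 for Sdhb and 0.08 for the membrane anchor Sdhd (by edgeR, adjusted p = 0.691, 0.698 and 0.627).

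In complex III, with cytochrome c counted here, Cycs had the smallest p of all members. Cycs (mm9 chr6:50512562-50516537, minus strand) encodes the small protein that carries electrons from complex III to complex IV and that triggers the apoptosome when released. It had 48.2, 47.8, 46.5, 44.6 and 48.8 CPM in MNR litters A to E, against 53.4, 55.3, 62.2, 53.1 and 64.8 CPM in control litters A to E. All 5 MNR litters lay below all 5 control litters, and MNR litters were also the closer together. The log2 fold change was -0.29 (SE 0.07, 95% interval -0.43 to -0.15), with an adjusted p by edgeR of 0.0587, which missed the threshold, and a DESeq2 adjusted p of 0.00339, which passed it. Over 26 alternative settings, its log2 fold change ran from -0.33 to -0.23, and its adjusted p was under 0.05 in 7 of them, 1 of which counts littermates as independent. Per length it was the lowest of the 10 nuclear genes of this set, at 38.4 ± 1.7 TPM in MNR and 45.7 ± 3.1 TPM in control (SD, n = 5 each).

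The other nuclear genes of complex III differed less. Uqcrc2, a core protein, stood at 336 ± 18 TPM in MNR and 339 ± 16 TPM in control and was the highest over all litters. Its log2 fold change was -0.01 (by edgeR, adjusted p = 0.942). Uqcrh was close, at 343 ± 19 TPM in MNR and 320 ± 26 TPM in control. With longest transcripts as lengths, Uqcrc2 stood at 198 TPM over all litters, below Uqcrh at 253 TPM. Uqcrb and Uqcrh, small accessory subunits, had log2 fold changes of -0.08 and 0.10 (by edgeR, adjusted p = 0.511 and 0.514), and Uqcrb has near-identical copies in the genome.

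Complex IV held the second nuclear gene with separated litters. Cox5a (mm9 chr9:57369039-57380231, plus strand), a subunit on the matrix side of the enzyme, had 65.7, 63.6, 58.3, 65.6 and 59.6 CPM in MNR litters A to E, against 72.4, 69.1, 69.0, 76.1 and 75.8 CPM in control litters A to E. All 5 MNR litters were below all 5 control litters (log2 fold change -0.21, SE 0.05, 95% interval -0.33 to -0.09, by edgeR, adjusted p = 0.0770, DESeq2 adjusted p = 0.00998). Cox5a overlaps the noncoding gene Gm17596 on the opposite strand. Cox8a, a small membrane subunit, had a log2 fold change of -0.08 (by edgeR, adjusted p = 0.590).

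**Figure D4:**
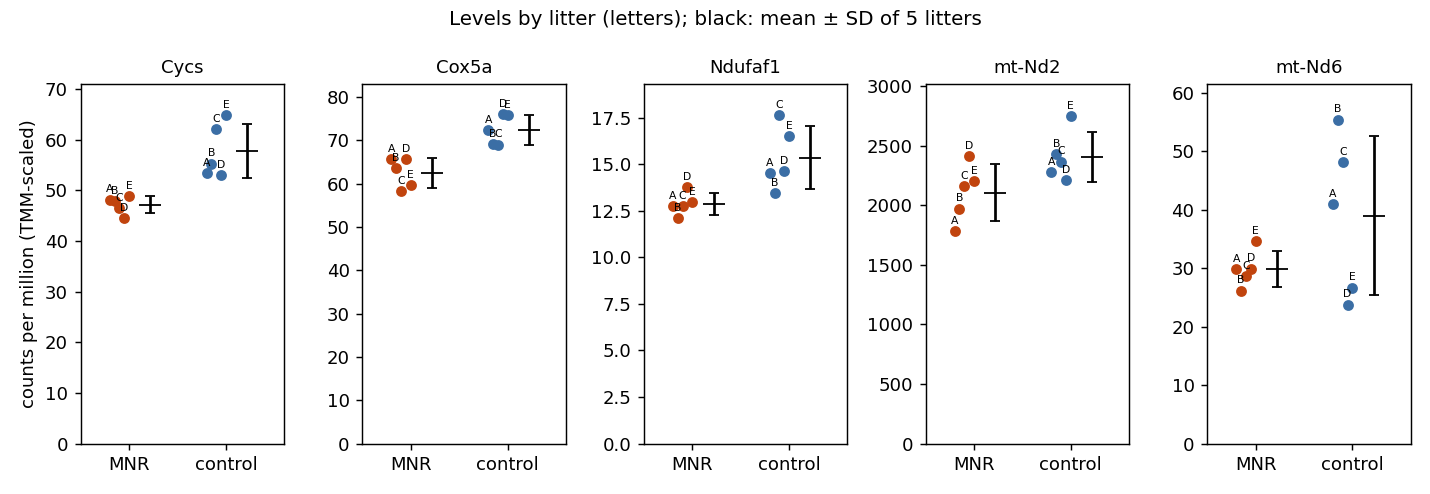
TMM-scaled CPM of Cycs, Cox5a, Ndufaf1, mt-Nd2 and mt-Nd6 by litter, MNR left and control right, with letters for litters and black bars for the mean ± SD of 5 litters. MNR and control litters are apart in Cycs and Cox5a and overlap in the other 3 genes.

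Several complex IV subunits have isoforms that differ between tissues, and the liver forms made up nearly all of each pair. Cox4i1 was the highest nuclear gene of complex IV, at 604 ± 10 TPM in MNR and 588 ± 46 TPM in control litters, and made up 99.9% of Cox4i1 and Cox4i2 together in both groups. Cox4i2, known from lung, was the lowest tested, at 0.718 ± 0.083 TPM in MNR and 0.824 ± 0.305 TPM in control. Cox6a1 made up 99.8% ± 0.15 of its pair in MNR and 99.9% ± 0.05 in control, with the heart and muscle form Cox6a2 at 67 counts in all MNR litters and 30 in all control litters. The muscle form Cox7a1 was 3.70% ± 0.61 of Cox7a1 and Cox7a2 in MNR and 4.24% ± 0.60 in control (SD, n = 5 each), and its log2 fold change was -0.25 (SE 0.16, by edgeR, adjusted p = 0.428). Cox8b, another muscle form, had 1 count in MNR litters and 0 in control litters, Cox7b2 had 0 in MNR litters and 1 in control litters, and no count was found for Cox8c, so none of these can be compared. The summed markers of striated muscle and heart were 6.51 to 13.2 CPM in MNR litters and 5.50 to 23.3 CPM in control litters.

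Other complex IV isoforms held larger shares. Cox6b2, known from testis, was 6.57% ± 0.70 of Cox6b1 and Cox6b2 in MNR and 6.91% ± 1.52 in control litters (SD, n = 5 each). Ndufa4, long counted with complex I and now placed in complex IV, made up 84.5% ± 2.8 of the pair with Ndufa4l2 in MNR and 86.9% ± 5.5 in control. Ndufa4l2, a hypoxia-induced relative, varied most of all members between litters. It had 37.4, 59.8, 34.8, 43.9 and 44.5 CPM in MNR litters A to E, against 15.6, 59.7, 37.8, 34.7 and 35.5 CPM in control litters A to E. Litter B was the highest in both groups and control litter A the lowest of all 10 (log2 fold change 0.27, SE 0.27, by edgeR, adjusted p = 0.623). Ndufa4l2 overlaps Shmt2 on the opposite strand. Cox7a2l, which helps join complexes III and IV, had a log2 fold change of 0.06 (by edgeR, adjusted p = 0.610), and it has a near-identical copy in the genome.

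ATP synthase held the most abundant nuclear member. Atp5b, the catalytic beta subunit, stood at 1998 ± 93 TPM in MNR and 1979 ± 61 TPM in control litters (SD, n = 5 each). Its log2 fold change was 0.01 (by edgeR, adjusted p = 0.948). Its partner Atp5a1, the alpha subunit, came next at 751 ± 38 TPM in MNR and 766 ± 40 TPM in control. The 17 nuclear genes of this set had a median log2 fold change of -0.02 and ranged from -0.15 to 0.04. Atp5j, the coupling factor in the stalk, had 92.5, 110, 95.5, 111 and 101 CPM in MNR litters A to E, against 108, 114, 116, 108 and 120 CPM in control litters A to E. MNR litters B and D lay among the control litters and the others below them (log2 fold change -0.15, SE 0.06, by edgeR, adjusted p = 0.222). Atp5j overlaps Gabpa on the opposite strand. Atp5k, a small membrane subunit, had a log2 fold change of -0.14 (by edgeR, adjusted p = 0.478).

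The genes Atp5g1, Atp5g2 and Atp5g3 encode the same mature c subunit of the rotor from different precursors. Atp5g3 made up 66.2% ± 0.6 of their TPM in MNR and 66.9% ± 0.7 in control litters (SD, n = 5 each). Atp5g1 made up 16.2% ± 1.2 in MNR and 16.5% ± 1.5 in control, and Atp5g2 17.5% ± 0.8 in MNR and 16.6% ± 1.1 in control. With longest transcripts as lengths, Atp5g3 stood at 529, Atp5g2 at 157 and Atp5g1 at 29.9 TPM over all litters. The shares, above all that of Atp5g1, thus depend on the lengths used. Their log2 fold changes were -0.06 for Atp5g3, -0.06 for Atp5g1 and 0.04 for Atp5g2 (by edgeR, adjusted p = 0.675, 0.819 and 0.717), and Atp5g2 has near-identical copies in the genome. Atp5s, a relative that is no subunit, was the lowest gene of the set at 5.85 ± 0.34 TPM in MNR and 5.81 ± 0.45 TPM in control, with a log2 fold change of 0.01 (by edgeR, adjusted p = 0.946). Atp5l-ps1, which has near-identical copies in the genome, had -0.04 (by edgeR, adjusted p = 0.826). Atp5sl and Cox4nb, which were assigned to no complex here, had 0.16 and -0.07 (by edgeR, adjusted p = 0.345 and 0.496).

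**Figure D5:**
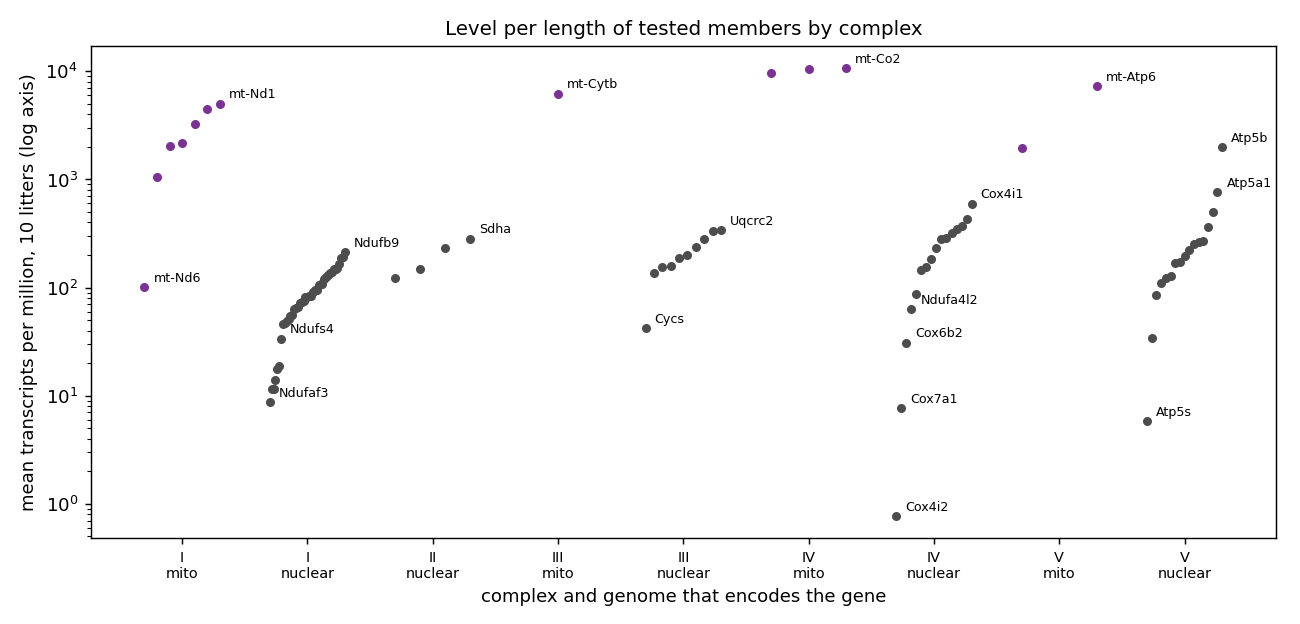
Mean level per length over the 10 litters, in TPM on a log axis, for tested members by complex and by the genome that encodes them, points sorted by level within a column. Mitochondrially encoded genes (purple) stand above the nuclear genes (grey) of their complex except mt-Nd6 and mt-Atp8, and Atp5b and Cox4i1 lead the nuclear genes of complexes V and IV.

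Genes outside the rule that build, regulate or feed the chain were read from lists made by hand. Of 122 tested genes in 9 lists, 2 rose in MNR and 0 fell (edgeR, adjusted p under 0.05), against 73 higher and 44 lower among the 17573 tested genes (0.666% in all). The first was 1810063B05Rik, an older name of Coa6, which takes part in the delivery of copper to complex IV. It had 17.4, 17.8, 18.3, 17.6 and 20.1 CPM in MNR litters A to E, against 11.8, 14.7, 14.0, 13.7 and 14.4 CPM in control litters A to E. All MNR litters were above all control litters (log2 fold change 0.41, SE 0.07, by edgeR, adjusted p = 0.0335). Leaving out any of 8 of the 10 litters raised its adjusted p to 0.0584 to 0.0872, with control litter B and MNR litter D as the exceptions. It was the only one of 23 tested complex IV assembly factors to pass, and the list's median log2 fold change was -0.03. Of the rest, Ccdc56 (Coa3) had a log2 fold change of -0.19 and Sco2, a copper chaperone, 0.42 (by edgeR, adjusted p = 0.144 and 0.165).

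The second was Ppargc1b, a coactivator that raises mitochondrial gene expression and was 1 of 14 tested nuclear regulators, at 19.8, 14.7, 9.99, 10.8 and 18.2 CPM in MNR litters A to E, against 5.46, 6.34, 3.88, 6.83 and 6.24 CPM in control litters A to E. Its level lay above all control litters in every MNR litter (log2 fold change 1.35, SE 0.21, by edgeR, adjusted p = 0.0263). Leaving out control litter A, C, D or E, or MNR litter A, B or E, raised the adjusted p to 0.0544 to 0.0799. Its relative Ppargc1a had 32.9, 35.3, 34.2, 18.0 and 33.8 CPM in MNR litters A to E, against 15.3, 19.3, 11.8, 16.9 and 26.4 CPM in control litters A to E (log2 fold change 0.78, by edgeR, adjusted p = 0.0904), so MNR litter D was at the level of the controls. Ppard, a nuclear receptor of fatty acids, had a log2 fold change of -0.32 (by edgeR, adjusted p = 0.101), and the list's median was 0.02.

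In the other lists no gene passed. Of 19 genes of the citrate cycle and pyruvate dehydrogenase, the one of smallest p was Cs, citrate synthase, the entry enzyme of the cycle. It had 105, 97.2, 102, 103 and 98.7 CPM in MNR litters A to E, against 120, 108, 122, 132 and 126 CPM in control litters A to E, all MNR litters below all control litters (log2 fold change -0.26, SE 0.06, by edgeR, adjusted p = 0.0587). Pdhx, a component of pyruvate dehydrogenase, followed at -0.12 (by edgeR, adjusted p = 0.259). Of 26 genes that copy, transcribe or process mitochondrial DNA and RNA, Fastkd1, which acts on mitochondrial RNA, and Peo1, the mitochondrial DNA helicase, had log2 fold changes of 0.25 and 0.27 (by edgeR, adjusted p = 0.0833 and 0.0904), and the median was 0.04. Among 16 carriers, pores and electron donors, Slc25a4, the ADP/ATP carrier, had 0.21, and Aifm1, a flavoprotein of the intermembrane space, -0.10 (by edgeR, adjusted p = 0.224 and 0.375).

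Assembly factors of the other complexes showed no call. Of 9 complex I factors outside the rule, Tmem186 had a log2 fold change of 0.22 and 4930455C21Rik (Timmdc1) -0.16 (by edgeR, adjusted p = 0.161 and 0.253). The 4 complex II factors were led by Sdhaf1 at -0.11 and 1110058L19Rik at -0.07 (by edgeR, adjusted p = 0.600 and 0.695). In the 6 complex III factors, 2900010M23Rik had -0.20 and Lyrm7 had 0.68 with an SE of 0.33 (by edgeR, adjusted p = 0.268 and 0.283). The 6 complex V factors and inhibitors were led by Atpaf2 at -0.10 and Atpaf1 at -0.09 (by edgeR, adjusted p = 0.522 and 0.628). The medians of these 4 lists were -0.03, -0.05, -0.04 and -0.03.

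The hepatocyte identity of the samples showed in its markers, which summed to 152840 to 177570 CPM in MNR litters and 158550 to 183350 CPM in control litters. Erythroid markers, 17 genes, summed to 36669 to 49667 CPM in MNR and 36011 to 55744 CPM in control litters, and 0 of them passed the test. Neutrophil and granulocyte precursor markers summed to 2488 to 3612 CPM in MNR and 2266 to 2618 CPM in control, with 0 of 10 past the test. Their part in the differences given above was not tested, except that the erythroid marker level was entered as a covariate, with which Cycs passed. Exocrine pancreas markers exceeded 100 CPM in 3 fetuses, 2 of them MNR (litters B and E) and 1 control (litter B). Without these fetuses, 0 members passed (edgeR, adjusted p under 0.05), with 6 at an unadjusted p under 0.05.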

How the data were processed

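Polyadenylated RNA of 20 fetal livers was measured. The deposited files give whole-number read counts per Ensembl transcript of mm9 for each fetus, with no normalization by the authors. FastQC, Bowtie2, DESeq2 and edgeR are named, without versions or roles, per the submitters' processing notes. How reads were counted, by strand or not, and what was done with multi-mapping reads is not given in these notes. A deposited gene table whose values are not the sums of these transcript counts was not used.

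Counts of transcripts were added up to genes using the GENCODE M1 annotation of NCBIM37 (the assembly of mm9), then over littermates. Transcripts without a match in the annotation held 0.0788% to 0.154% of counts. Genes were kept by edgeR's filterByExpr (minimum count 10), scaled by TMM and tested with edgeR 4.0.16 (quasi-likelihood, R 4.3.3) in 5 MNR and 5 control litters, with Benjamini-Hochberg adjustment over 17573 genes and a threshold of 0.05. The fit was also run on simulated counts, with changes of 1.5-fold or more in either direction, so it says nothing of smaller changes. DESeq2 1.42.0 and limma 3.58.1 (voom with litter as a random effect) were alternatives, beside other scalings, filters, single fetuses, a litter letter block, an erythroid covariate and leaving out each litter. Alternatives that left out fetuses with pancreatic transcripts or added nuclear-copy counts were chosen after seeing the data. No 2 fetuses had identical counts. TPM was computed from transcript counts over transcript length.

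The members, gene lists and tests were chosen with earlier results of these data known. Genes named are all mitochondrially encoded members; in each complex the 3 nuclear members of smallest p and the highest and lowest per length; isoform sets; members that are no subunit; and, in each other list, genes past the threshold and the 2 of smallest p among the rest. Nuclear copies were sought in NCBIM37 with megablast.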

Additional observations from a re-analysis of the deposited data

Results flagged for a closer look

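In 140 groups of 5 litters (the named genes, and the mitochondrially encoded share of counts, in MNR and in control litters), the highest or lowest litter stood apart from the others of its group in 7, by a gap of more than 0.71 of the range of the group. Chance flags about 1 in 20 groups. Among respiratory chain members, Ndufs5 had a control litter at 27.2 CPM with the others at 23.2 to 24.1 CPM. Ndufaf2 had a control litter at 9.54 CPM with the others at 7.90 to 8.38 CPM. Cox6a1 had a control litter at 159 CPM with the others at 133 to 137 CPM. mt-Atp8 had a control litter at 254 CPM with the others at 275 to 284 CPM. Outside the members, Atpaf1 had an MNR litter at 9.68 CPM with the others at 12.8 to 13.3 CPM. Ppargc1a had an MNR litter at 18.0 CPM with the others at 32.9 to 35.3 CPM. Ppard had a control litter at 20.8 CPM with the others at 15.3 to 16.4 CPM.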

How the results depend on the processing

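The count of 0 members past the threshold became 1 with upper-quartile scaling, with voom, with only fetus 2 of each litter and with the erythroid covariate, 2 at an adjusted p under 0.1, 3 with DESeq2 and 4 with fetuses as separate libraries, a setting that counts littermates as independent. It ran from 0 to 3 when a litter was left out, with 3 (Cycs, Cox5a and Ndufaf1) without control litter B. The count of 117 genes over the whole table (73 higher, 44 lower) became 178 with upper-quartile scaling (68 higher, 110 lower), 1163 with DESeq2, 1084 with voom, 0 with only fetus 1, 499 with only fetus 2, 2301 with separate fetuses, 875 at an adjusted p under 0.1 and 215 without the fetuses with pancreatic transcripts. It ran from 0 to 843 when a litter was left out, with 0 on leaving out MNR litter B or E or control litter A, C or E, 2 without control litter D or MNR litter A, 30 without MNR litter C, 512 without MNR litter D and 843 without control litter B. The 2 genes called in the other lists became 10 with DESeq2, 9 with voom, 0 with only fetus 1, 4 with only fetus 2, 14 with separate fetuses and 6 at an adjusted p under 0.1, and ran from 0 to 6 when a litter was left out. The cause of these shifts was not tested. Equal litter letters are different dams. Correlations of equal letters ran from -0.01 to 0.18, and none was computed for unequal letters, so they cannot show whether equal letters share anything else. With the letter as a replicate block, 0 members and 232 genes passed. The median log2 fold change of the mitochondrially encoded members stayed between -0.14 and -0.08 and that of the nuclear members between -0.05 and 0.01 in the alternatives run. All 13 mitochondrially encoded genes were negative in 19 of 25 alternative fits, 8 with only fetus 1, 9 without control litter B or E and 12 without control litter C or MNR litter A or B. None passed in any of these fits.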
